A study of Mus musculus with 8 samples.

Results

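The 8 regulators of T cell identity examined were the Runt family factors Runx1, Runx2 and Runx3, their partner Cbfb, and the factors Gata3, Bhlhe40, Satb1 and Nfil3. They were chosen by gene name, as every probe that the platform annotation gives to 1 of these 8 symbols. This found 8 probes of 7 genes, among 24048 probes of 14776 named genes; no probe is listed for Runx2, so its signal was not analysed here and it appears only in the account of promoter sequences. Virus-specific CD8 T cells from 2 groups of mice were compared, with 4 samples and 4 arrays each. The CKO group carried loxP-flanked alleles of the Blimp-1 gene, Prdm1, and a Cre recombinase driven by granzyme B sequences (labelled Blimp-1flox/flox x GranzymeB-cre+), and the WT group consisted of littermates labelled wildtype. Since this Cre acts once granzyme B is switched on, deletion follows activation of the T cell. Infection was with lymphocytic choriomeningitis virus, strain Armstrong, at 200000 plaque-forming units, and spleen cells that bound CD8 antibody and class I tetramers of viral peptides were sorted at day 8. No source used here gives ages or the number of animals per sample.

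Runx proteins bind DNA through their Runt domain, and Cbfb, which does not itself contact DNA, strengthens that binding. In CD8 T cells Runx complexes silence Cd4 and support the cytotoxic programme, while Gata3 is best known for driving type 2 helper cells and is also needed by CD8 T cells. Satb1 organises chromatin in thymocytes and T cells, and Bhlhe40 and Nfil3 are repressors that respond to activation and also act within the circadian clock. Blimp-1 is a transcriptional repressor that promotes terminal differentiation of effector CD8 T cells.

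Values are log2 signals on a scale from 5.33 to 15.15, and a higher value means a brighter probe. Samples are named by group and replicate number. Array medians lay between 6.149 and 6.152. Within a group arrays correlated at 0.972 to 0.993 across tested probes, and between groups at 0.958 to 0.981. CKO2 and WT2 stood apart, with 18S ribosomal RNA at 10.80 and 11.20, against 12.47 to 12.99 in the other 6 samples. Of the 2 Prdm1 probes, 1 was lower in CKO (6.50 ± 0.15 against 7.78 ± 0.27 in WT, SD, n = 4 each, limma adjusted p = 0.00121). The other was higher in CKO (9.01 ± 0.29 against 5.81 ± 0.22 in WT, adjusted p = 4.43e-06). No source used here places them relative to the deleted part, so they do not by themselves check the labels.

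CD8 T cell markers were bright in both groups, as for Cd8b1 at 14.31 ± 0.17 in CKO and 14.64 ± 0.07 in WT and Cd3d at 13.95 ± 0.09 and 13.89 ± 0.11 (SD, n = 4 each). All 8 measured of 10 listed were bright enough to test, and 2 of them fell at a limma adjusted p under 0.05, where 3.04% of all tested genes were called lower. These were Cd2, an adhesion receptor, at -0.54 (adjusted p = 0.00857) and Thy1, a surface protein of T cells, at -0.46 (adjusted p = 0.0326). With the replicate number as a block 3 fell, where 5.69% of all tested genes were called lower. With the mean of a gene's probes 3 fell as well, and no share of all genes was computed for that setting. The summed linear signal of the 8 markers ran from 65594 to 77552 in CKO and from 82286 to 89452 in WT. Cd4 lay near the floor, at 5.85 ± 0.06 in CKO and 5.94 ± 0.09 in WT.

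Bhlhe40 was lower in CKO cells in every sample, and it was the only regulator of the 7 measured whose change passed the test with genotype alone in the model. Runx1 was lower by a similar amount on the deposited scale but varied more between samples. Its probe was dimmer, and with 50 added to the signals before log2 the differences were -0.54 for Runx1 and -0.75 for Bhlhe40. Runx1 passed once the replicate number, shared by a CKO and a WT sample, was taken into account. The labels state no such pairing, which was inferred from likeness between the arrays. Gata3 had a lower mean in CKO without passing either test. Cbfb, Satb1 and Nfil3 had differences close to 0, and the Runx3 probe was too dim to be informative.

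Testing was limited to probes whose mean across the arrays exceeded 6.12, which is the median of the probe means, and a call required a Benjamini-Hochberg adjusted p under 0.05 over all 11991 probes tested. Of the 8 regulator probes, 7 were tested, 1 was called lower and 0 were called higher, where 2.54% of all tested probes were called lower and 4.13% higher, 6.67% in either direction. With the replicate number as a block, 2 were called lower and 0 higher, against 5.1% and 6.25% of all tested probes, 11.3% in either direction. At an unadjusted p under 0.05, 2 of the 7 passed with genotype alone. The share of all tested probes at that level was not computed, so this count has no background beside it. The median difference, CKO minus WT, was -0.15 over the 7 regulator probes and -0.01 over all tested probes. No test of the group of 8 as a whole was made. The design text calls the samples independent but does not tie each to its own animal. The p-values therefore rest on sample-to-sample spread, some of which may be technical.

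**Figure D1:**
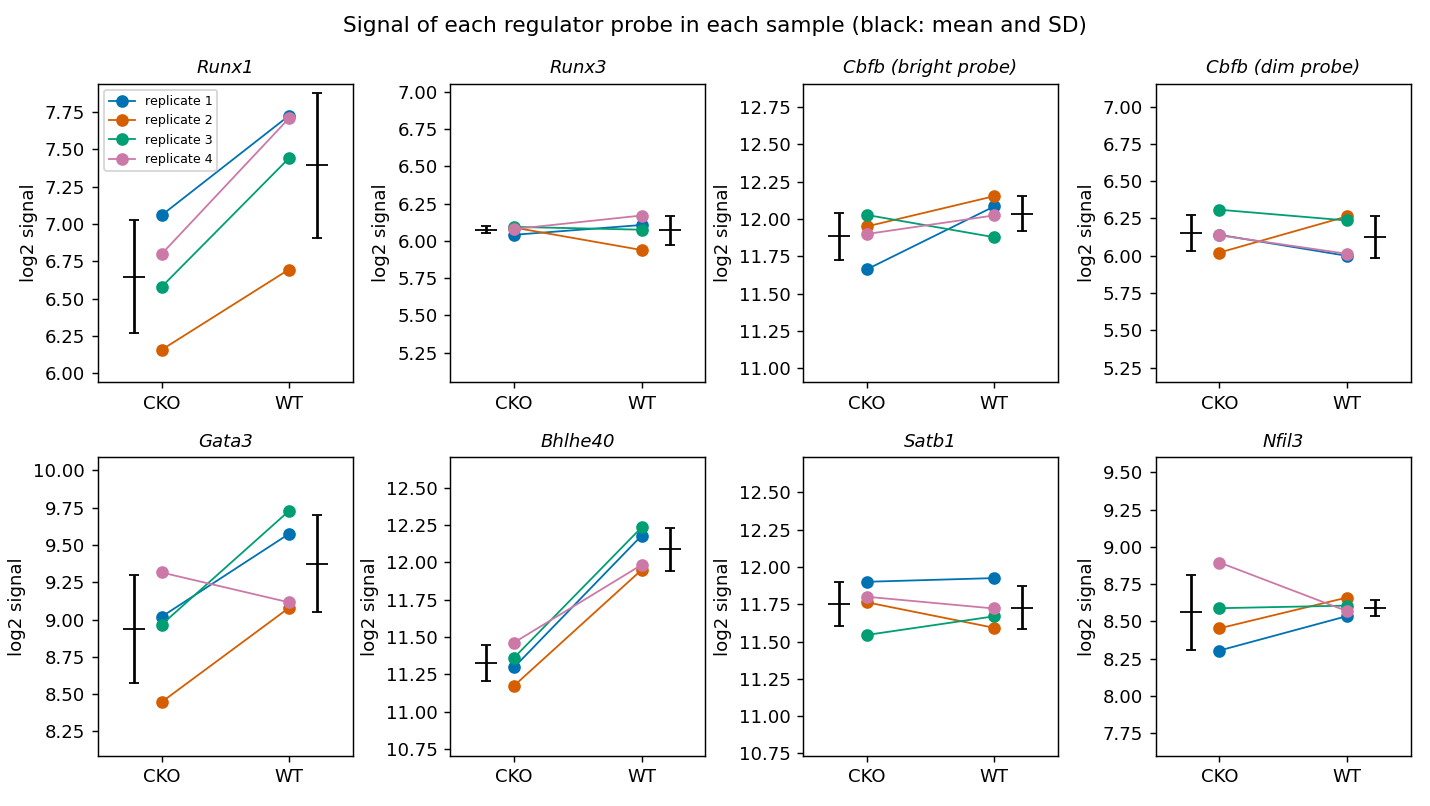
Log2 signal (vertical axes, each spanning 2 log2 units) of each of the 8 regulator probes in the CKO and WT samples; lines join samples with the same replicate number, and black marks beside the points give the mean and SD of 4 samples. Bhlhe40 is the only panel in which the groups do not overlap, and each of the 4 Runx1 lines is lower at its CKO end.

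Bhlhe40, also known as Dec1, is a basic helix-loop-helix repressor induced by T cell activation. Its signal was 11.30, 11.17, 11.36 and 11.46 in CKO1 to CKO4, against 12.18, 11.95, 12.24 and 11.98 in WT1 to WT4. The groups did not overlap: the highest CKO sample lay 0.49 below the lowest WT sample. This holds for 5.68% of all tested probes in the same direction. The mean was 11.32 ± 0.12 in CKO and 12.09 ± 0.14 in WT (SD, n = 4 each), so signal fell by 0.76 (SE 0.10, 95% interval -0.996 to -0.53), or 1.70-fold (limma adjusted p = 0.00289). Only 1.03% of tested probes had a more negative difference. Its spread within groups was small, at an SD of 0.13, with 27.0% of tested probes showing a smaller one.

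Markers of other cells differed between samples. Hba-a1, an alpha globin gene of red cells, was at 13.68, 8.29, 6.60 and 7.67 in CKO1 to CKO4 and at 12.08 to 13.68 in WT. Klrb1c, a natural killer cell receptor gene, was at 6.63 to 6.77 in CKO and at 9.95, 9.91, 6.72 and 8.04 in WT1 to WT4. Neither gene passed with genotype alone (limma adjusted p = 0.109 for Hba-a1 and 0.0885 for Klrb1c), and both were lower with the block (0.025 and 0.0283). The other natural killer markers did not show the Klrb1c pattern. Ncr1, at 5.81 in CKO and 5.86 in WT, Klra8 and Klra4 were below the filter. Klre1 was at 9.39 ± 0.08 in CKO and 9.91 ± 0.33 in WT. The myeloid marker Lyz2 was brighter in the samples numbered 3 and 4. It reached 8.47 in CKO3, 10.30 in CKO4, 8.87 in WT3 and 8.75 in WT4, while samples numbered 1 and 2 gave 6.45 to 6.98. C1qb, another myeloid marker, stood at 9.57 in CKO4 and between 6.66 and 7.52 in every other sample. Lyz2 and C1qb passed neither with genotype alone (limma adjusted p = 0.858 and 0.787) nor with the block. Fcgr3 and Adgre1 did not follow the replicate number as Lyz2 did. Fcgr3 was lowest of the CKO samples in CKO3, at 6.44, and Adgre1 was highest of the WT samples in WT1, at 7.81. Adgre1 and C1qa were, like C1qb, brightest in CKO4, at 8.74 and 7.90. Cd14 and Itgam were below the filter. The part of these markers in the differences of Bhlhe40 and Runx1 was not tested.

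Of 7 neutrophil markers listed and tested, Camp and Ltf fell, beside the same 3.04% of all tested genes, at 6.31 ± 0.12 and 6.03 ± 0.13 in CKO against 7.10 ± 0.18 and 6.59 ± 0.29 in WT (limma adjusted p = 0.00345 and 0.0455). Ltf was tested only through its WT values, because its CKO mean lay below the filter, near the floor. The size of its fall is therefore uncertain. Camp lay above the filter in both groups. The other 5 markers did not pass, with S100a8 at -0.60 and Mmp9 at 0.08. The summed neutrophil signal ran from 802 to 1261 in CKO and from 916 to 2316 in WT. The part of these markers in the Bhlhe40 difference was not tested. In bulk samples, fewer cells of a type and less RNA per cell cannot be told apart.

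The genes whose brightest probe followed Bhlhe40 most closely over the 8 arrays were Ly6c1, a surface protein of activated and memory CD8 T cells, Itgal, the alpha chain of the integrin LFA-1, and Leprot. Their Pearson correlations with Bhlhe40 were 0.965, 0.962 and 0.961. Most of that likeness is the shared difference between groups: with group means removed, the correlations were 0.637, 0.544 and 0.652. The arrays share their normalization, and 8 points describe the likeness only. Ly6c1 was 0.53 lower in CKO and Itgal 0.47 lower (limma adjusted p = 0.0104 and 0.0128), while Leprot at -0.28 did not pass (adjusted p = 0.0827).

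Runx1 is the Runt factor that dominates in early thymocytes and in naive T cells. Its signal was 7.06, 6.16, 6.58 and 6.80 in CKO1 to CKO4, against 7.73, 6.69, 7.44 and 7.71 in WT1 to WT4. The groups overlapped, because WT2 lay below CKO1 and CKO4. The sample numbered 2 was the lowest of its group in both groups, 0.49 below the mean of CKO and 0.70 below that of WT. These are the same samples that had the lowest 18S signal, and the part of that in the Runx1 values was not tested. The mean was 6.65 ± 0.38 in CKO and 7.39 ± 0.48 in WT (SD, n = 4 each), a difference of -0.74 (SE 0.25, 95% interval -1.30 to -0.19, limma adjusted p = 0.113). The spread within groups, an SD of 0.44, was larger than that of 95.2% of tested probes.

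Taken by replicate number, CKO was lower than WT for Runx1 in 4 of 4 pairs, by -0.67, -0.54, -0.86 and -0.91. A fall in all 4 pairs was seen in 17.4% of tested probes. The pairs were inferred from the values, which did not separate the samples numbered 3 and 4. With the number as a block, Runx1 fell by 0.74 (SE 0.10, 95% interval -0.97 to -0.52, adjusted p = 0.00286). Without WT2 it also passed with genotype alone (-0.98, adjusted p = 0.0203), which removes the lowest WT value, and likewise without both samples numbered 2 (-0.81, adjusted p = 0.0099). Without CKO2, the lowest CKO value, the difference was -0.58 (adjusted p = 0.175), and none of the 7 settings that left out a single sample other than WT2 passed (adjusted p = 0.0866 to 0.26).

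**Figure D2:**
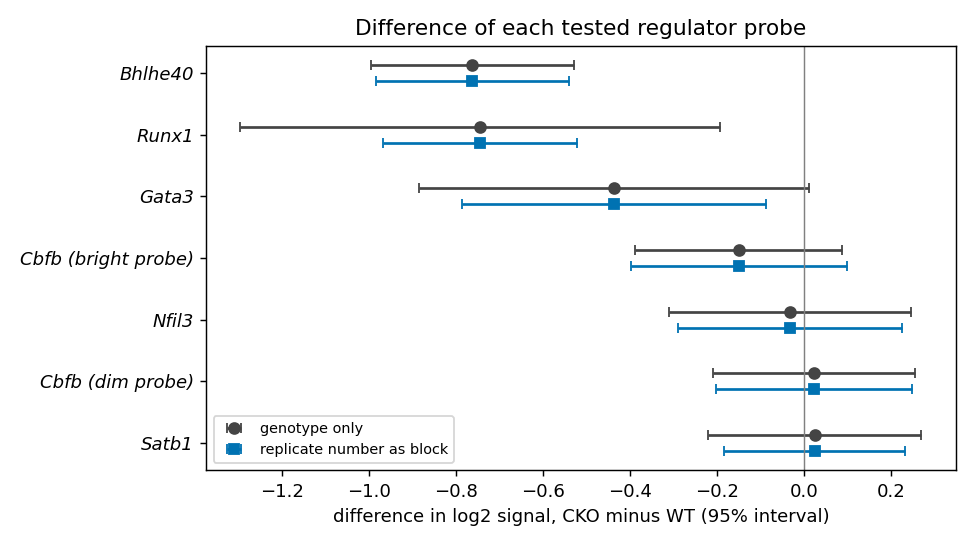
Difference in log2 signal, CKO minus WT (horizontal axis), with 95% intervals for the 7 tested regulator probes, from the fit with genotype alone (circles) and with the replicate number as a block (squares). The block leaves each difference unchanged and narrows the interval of Runx1, which spans -0.97 to -0.52 with the block and -1.30 to -0.19 without it.

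Runx3, the Runt factor most associated with CD8 T cells, was represented by 1 probe at 6.04 to 6.09 in CKO and 5.94 to 6.17 in WT. These values lay below the filter of 6.12 on average, and 46.1% of all probes were dimmer. The difference was 0.00 in a fit without the filter (95% interval -0.17 to 0.18, limma adjusted p = 0.992). So close to the floor, a silent gene and an unresponsive probe would look alike.

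Cbfb, the shared partner of the Runt factors, had 2 probes. The brighter was at 11.66, 11.95, 12.03 and 11.90 in CKO1 to CKO4, against 12.08, 12.15, 11.88 and 12.02 in WT1 to WT4. The groups overlapped, and the difference was -0.15 (SE 0.11, 95% interval -0.39 to 0.09, limma adjusted p = 0.503). The dimmer probe, with a highest sample of 6.31 in CKO and 6.26 in WT, averaged 6.14 over all arrays, just above the filter, and differed by 0.02 (95% interval -0.21 to 0.26, adjusted p = 0.934). The changes of both probes differed by -0.17, which did not pass an exact two-sided permutation test (p = 0.229 as the only pair tested; the smallest p this design allows is 0.0286).

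The genes of the Runt factors share a feature in front of their coding parts that the choice by name did not use. RefSeq start sites of assembly GRCm38.p6, taken with 250 bases before and 50 after, gave 13 windows for 7 of the 8 regulators; Bhlhe40 had none. The Runx recognition letters ACCACA, searched on both strands, were found in 3 of the 13 windows, those of Runx1, Runx2 and Runx3, and in 16.8% of all 32851 windows. In each of these 3 the letters occur as a tandem, ACCACANNACCACA, which contains ACCACA at either end. With these 3 included, 7 of all windows (0.0213%) hold it. No spacing other than that of these 3 windows was searched, so this share is not independent of them. The 3 tandems are printed because they are the element common to the family, with the motif letters in capitals, 5′ to 3′ along the gene's strand, 30 bases each:
Runx1, chr16:92826025-92826054, minus strand: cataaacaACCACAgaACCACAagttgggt
Runx2, chr17:44814583-44814612, minus strand: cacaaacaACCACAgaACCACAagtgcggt
Runx3, chr4:135120503-135120532, plus strand: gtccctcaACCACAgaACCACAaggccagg
The tandem begins 28 bases after the annotated start in Runx1 and 23 bases after it in Runx2, and 134 bases before it in Runx3. Runx1 and Runx3 each have a further annotated start whose window lacks it. For Blimp-1, the letters AGNGAAAG, searched on both strands, were found in 1 of the 13 windows, that of Runx2, and in 8.63% of all windows. A match is a description of these letters and not a binding site shown by these data.

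Gata3 is a zinc finger factor required at several steps of T cell development. Its signal was 9.02, 8.45, 8.97 and 9.32 in CKO1 to CKO4, against 9.57, 9.08, 9.73 and 9.12 in WT1 to WT4. The groups overlapped, since CKO4 lay above WT2 and WT4, and the pair numbered 4 ran the other way from the rest (0.20, against -0.56, -0.63 and -0.76). The mean was 8.94 ± 0.36 in CKO and 9.37 ± 0.33 in WT (SD, n = 4 each), a difference of -0.44 (SE 0.20, 95% interval -0.89 to 0.01, limma adjusted p = 0.255). With the block it was -0.44 as well (95% interval -0.79 to -0.09, adjusted p = 0.108). Without CKO2 it was -0.27, and in samples 3 and 4 alone -0.28. As for Runx1, the samples numbered 2 were the lowest of their groups, and the spread was larger than that of 91.2% of tested probes.

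Satb1, a chromatin organiser abundant in thymocytes, was at 11.90, 11.76, 11.54 and 11.80 in CKO1 to CKO4, against 11.93, 11.59, 11.67 and 11.72 in WT1 to WT4. The groups overlapped over most of their range, and the difference was 0.03 (SE 0.11, limma adjusted p = 0.934). Its 95% interval, -0.22 to 0.27, leaves out a change as large as that of Bhlhe40 in either direction.

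Nfil3, also known as E4bp4, is a basic leucine zipper factor needed for natural killer cell development. It was at 8.31, 8.45, 8.59 and 8.90 in CKO1 to CKO4, against 8.54, 8.66, 8.61 and 8.57 in WT1 to WT4. The CKO values spread to both sides of the WT values. The SD was 0.25 in CKO and 0.05 in WT, and this difference in spread was not tested. The difference in means was -0.03 (SE 0.12, 95% interval -0.31 to 0.25, limma adjusted p = 0.924).

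**Figure D3:**
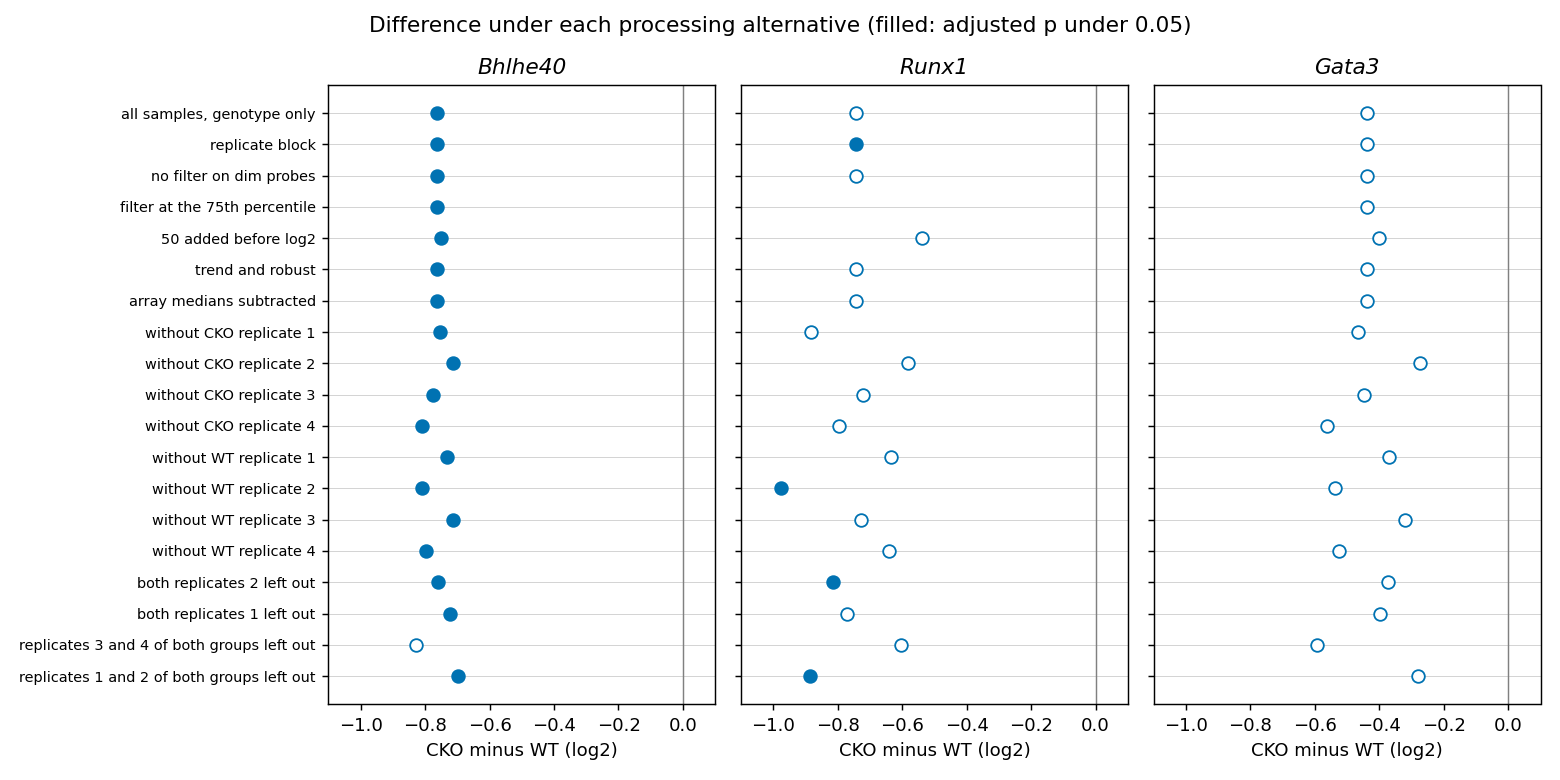
Difference in log2 signal, CKO minus WT (horizontal axes), of Bhlhe40, Runx1 and Gata3 under each processing alternative (rows); filled circles mark an adjusted p under 0.05. All differences are below 0, Bhlhe40 passes except with samples 1 and 2 alone (-0.83), and Gata3 passes nowhere; Runx1 has no circle in the row for the 75th percentile filter, which removes its probe.

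Genes that work with or under these regulators were counted by the brightest tested probe of each gene, beside 3.04% lower and 4.73% higher (7.77% in either direction) among all 8095 genes tested and a median difference of -0.01. Of 13 genes regulated by Runx factors in T cells, 9 were tested, 3 fell and 0 rose (median -0.30). Prf1, the pore-forming protein perforin, was at 7.97 ± 0.64 in CKO and 9.43 ± 0.62 in WT, a difference of -1.46 (limma adjusted p = 0.0343). Tbx21, which encodes the factor T-bet, was at 10.55 ± 0.45 in CKO and 11.69 ± 0.24 in WT, a difference of -1.14 (adjusted p = 0.0106). Ifng, interferon gamma, was at 8.44 ± 0.37 in CKO and 9.17 ± 0.23 in WT, a difference of -0.73 (adjusted p = 0.0455). The other 6 did not pass, among them Cd8b1 at -0.33 (adjusted p = 0.0898), Eomes, a factor related to T-bet, at 0.19 and Zbtb7b, the CD4 lineage factor that Runx complexes silence, at -0.30. With its probes averaged, Cd8b1 was at -0.46 and passed (adjusted p = 0.0381), making 4 of the list lower. No share of all genes was computed for that setting. Cd4 and Gzmb were below the filter. Gzmb was at 5.84 ± 0.23 in CKO and 5.90 ± 0.15 in WT. As for Runx3, a silent gene and an unresponsive probe would look alike so close to the floor. The Prf1 call was lost without CKO3, WT1, WT3 or WT4 (adjusted p = 0.0872 to 0.103) and with trend and robust settings (0.0751). Without both samples numbered 1, Prf1, Tbx21 and Ifng all lost theirs (adjusted p = 0.122, 0.0692 and 0.0839). With 1 sample left out at a time, Ifng kept its call only when CKO4 was the sample left out (adjusted p = 0.0518 to 0.135 otherwise).

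Of 15 Runx corepressors, coactivators and chromatin partners, 9 were tested and none passed (median -0.10). At an unadjusted p under 0.05 the count was 3, with no share of all tested genes computed at that level. The smallest p belonged to Sin3a, a corepressor scaffold, at -0.49 (limma adjusted p = 0.119, and 0.0469 with the block) and Tle5, a short relative of the Groucho corepressors, at -0.34 (adjusted p = 0.151). Of 14 genes tied to Gata3 and type 2 responses, 5 were tested, 1 rose and 0 fell (median 0.20). That gene was Irf4, a factor induced by T cell receptor signals, at 8.95 ± 0.17 in CKO and 8.36 ± 0.25 in WT, a difference of 0.59 (adjusted p = 0.0332). Its call was lost without any 1 sample other than CKO2 and WT2 (adjusted p = 0.0513 to 0.11). The type 2 cytokine genes Il4 and Il13 differed by -0.02 and -0.10 (adjusted p = 0.946 and 0.737), on dim probes.

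Of 34 other regulators of T cell lineages, 22 were tested, 1 fell and 0 rose (median -0.11). Dtx1, a ubiquitin ligase induced by Notch signals, was at 8.46 ± 0.50 in CKO and 9.89 ± 0.24 in WT, a difference of -1.44 (limma adjusted p = 0.00546). With the block, 4 fell and 3 rose, where 5.69% of all tested genes were called lower and 6.87% higher with it. Among these, Tox, a chromatin factor of T cell development and exhaustion, was at 1.39 (adjusted p = 0.0804 with genotype alone and 0.000893 with the block). Fli1, an Ets factor, was at -0.68 (adjusted p = 0.0517 and 0.0042). Of 16 clock genes, 9 were tested and none passed with genotype alone (median -0.03). At an unadjusted p under 0.05 there were 3, again without a share of all tested genes. The nearest were Per2, a period gene at 0.48 (adjusted p = 0.0693, and 0.0131 with the block), and Arntl, which encodes Bmal1, at -0.40 (adjusted p = 0.135). Bhlhe41, the close relative of Bhlhe40, was below the filter, at 5.80 ± 0.10 in CKO (n = 3, with 1 value missing) and 5.90 ± 0.14 in WT (n = 4).

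**Figure D4:**
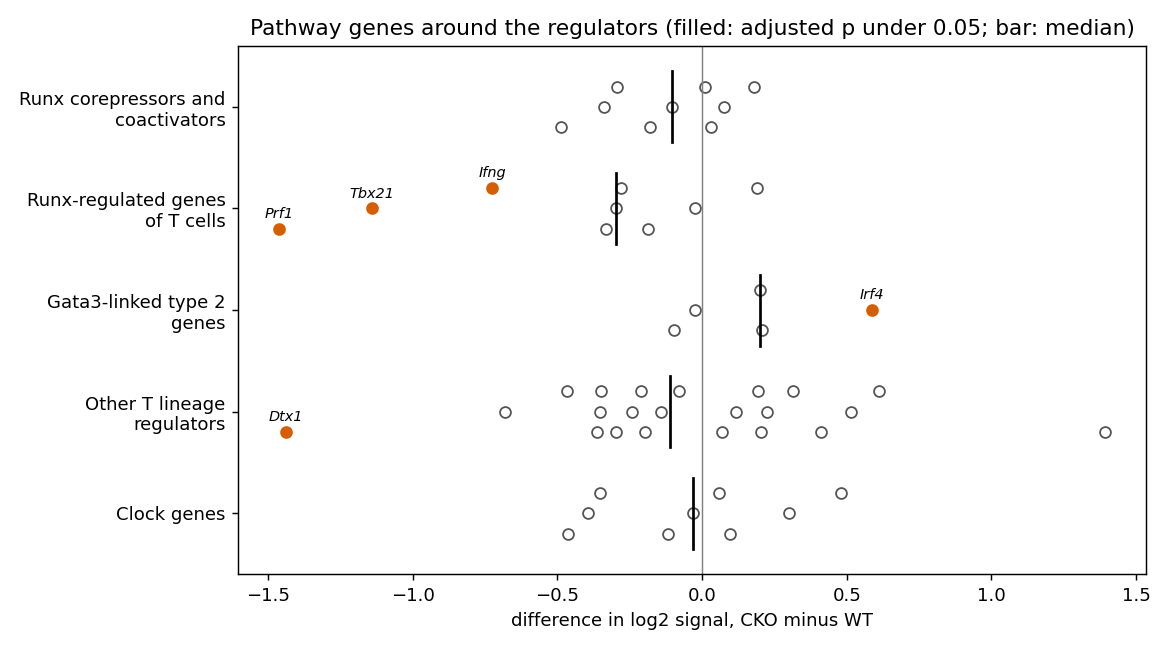
Difference in log2 signal, CKO minus WT (horizontal axis), of each tested gene in 5 lists (rows); filled points passed at an adjusted p under 0.05 and are named, and black bars mark the list medians. The list of genes regulated by Runx factors holds 3 of the 5 filled points, all below 0.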

How the data were processed

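Per the labels' protocols, biotinylated cRNA from an Illumina amplification kit was hybridised. The authors deposited 1 log2 value per probe and array; no source used here names the scanner, how background was corrected, how arrays were normalized or which probes were filtered. The values show normalization between arrays, since matching quantiles of the arrays differed by at most 0.024 log2. They are not centred per probe, and a floor above 5.3 compresses dim probes. Precision is limited by the number of arrays. Gene symbols were taken from the platform annotation: 19397 probes had 1 symbol, 0 several and 4651 none. The 18S control probe was listed under another gene, and that name was dropped after the table was seen.

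The deposited log2 values were compared without further normalization. In R 4.3.3, limma 3.58.1 (lmFit, then eBayes) was run over 11991 probes, two-sided, with all differences as CKO minus WT and SE as the moderated standard error. The procedure was checked on simulated data. Genes were named by rule: every regulator probe, Prdm1, up to 4 genes per list past the threshold with the largest difference, or the 2 with the smallest p, and the 3 genes most like each called regulator. Other genes named (Cd8b1, Cd3d, Cd2, Thy1, Cd4, Eomes, Zbtb7b, Il4, Il13, Gzmb, Tox, Fli1, Bhlhe41 and the markers of other cells) were picked after their values were seen. The regulators and lists were chosen with earlier results of these data known. Same-numbered samples deviated together from their group means, across probes, at correlations of 0.318, 0.468, 0.178 and 0.224. All exceed 0.1, so the numbers were taken to pair the samples. The number 3 and 4 samples were not separated by it, since CKO4 with WT3 and CKO3 with WT4 gave 0.254 and 0.263.

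Markers of other cell types were counted in the same way. Of 4 CD4 T cell markers 1 was tested, of 10 B cell markers 3, of 10 myeloid markers 5, of 5 natural killer cell markers 2, of 7 red cell and platelet markers 4, of 5 basophil and mast cell markers 1 and of 6 dendritic cell markers 3, and none of these was called with genotype alone. With the block, 2 natural killer, 1 red cell or platelet and 1 dendritic marker were called lower. These counts cover only probes with a gene symbol. The probe for the constant part of the Ig mu chain has none, so the listed B cell marker Ighm was left out. That probe averaged 9.9 in CKO and 8.8 in WT, and was called higher in CKO with genotype alone and with the block. The Ig kappa constant probe, also without a symbol, passed neither test. Il4, Zbtb7b, Cd4 and Cd8b1 stand in more than 1 list. Alternatives were the block, other filters, 50 added before log2, trend and robust settings, array medians subtracted, samples left out, and the mean of a gene's probes.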

Additional observations from a re-analysis of the deposited data

How the results depend on the processing

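Bhlhe40 kept its direction and its call under each alternative (-0.81 to -0.70, adjusted p from 0.00113 to 0.0332), except with samples 1 and 2 of both groups alone (-0.83, adjusted p = 0.197), where 8 probes of all were called lower and 13 higher and 0 regulators were called. Runx1 was below 0 throughout; it passed with the replicate block (-0.74) and, without it, without WT2 (-0.98), without both samples numbered 2 (-0.81) and in samples 3 and 4 alone (-0.89), each giving 2 regulators called lower. Leaving out 1 sample at a time gave 1 to 2 regulators called lower and 0 higher, and 121 to 427 probes lower and 242 to 559 higher over all. The lowest counts came without CKO3. With the block 611 and 749 probes of all were called, against 305 lower and 495 higher with genotype alone. The counts were 464 lower without both samples numbered 2, 120 and 223 without both numbered 1, and 553 lower in samples 3 and 4 alone.

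Counts in the lists were small and moved with the setting. Shares of all tested genes were computed only for genotype alone and for the block, so counts in the other settings have no background beside them. Genes regulated by Runx factors ranged from 1 to 3 lower with 1 sample left out, with 0 without both samples numbered 1 and 0 in samples 1 and 2 alone. The Gata3 list ranged from 0 to 1 higher, with 0 in the same 2 settings. Other lineage regulators ranged from 1 to 2 lower and 0 to 2 higher. They gave 4 lower and 3 higher with the block and in samples 3 and 4 alone, and 3 lower and 1 higher without both samples numbered 2. They gave 2 lower with the stricter filter, with 50 added, with trend and robust settings and with the mean of probes, and 0 in samples 1 and 2 alone. The clock list ranged from 0 to 1 higher. It gave 1 lower and 1 higher with the block, and 1 higher with trend and robust settings, without both samples numbered 2 and in samples 3 and 4 alone. The gene higher with the block was Per2, which was tested only through its CKO values. The corepressor list gave 1 lower with the block and in samples 3 and 4 alone. Causes were not tested. Dim probes near the floor, such as that of Runx3, limit what can be seen.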
